A study of Danio rerio with 7 samples.

Results

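Cardiac muscle contracts through the sarcomere, in which myosin heads on the thick filament pull on actin in the thin filament, and the troponin complex on the thin filament switches this pull on when calcium rises. In the zebrafish heart the 2 chambers carry different myosin heavy chains, that of the ventricle from vmhc and that of the atrium from myh6. The regulatory myosin light chain from myl7 is made in both chambers, and so is cardiac troponin T from tnnt2a, the subunit that ties the troponin complex to tropomyosin. Zebrafish without working tnnt2a have a heart that does not beat, and those without working myh6 have an atrium that does not contract.

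These 4 genes, chosen by name as heart muscle sarcomere genes, were followed by the Ensembl identifiers ENSDARG00000019096 (myl7), ENSDARG00000079564 (vmhc), ENSDARG00000090637 (myh6) and ENSDARG00000020610 (tnnt2a), out of 25049 genes in the table. All 4 passed the filter on low counts, which kept 23716 genes. The comparison asked how the mRNA of the heart sarcomere, and of the ventricle against the atrium, stood in larvae under low oxygen.

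Wild-type zebrafish larvae spent the window of 81-96 hpf (hours after fertilization) at 6% O2 (hypoxia, 3 libraries) or at 20.9% O2, that of air (normoxia, 4 libraries). A library held the poly(A) RNA of 1 pool of 30 whole larvae, so the heart was a small part of the tissue, and fewer heart muscle cells cannot be told apart from less mRNA per cell. Total counts per library were 67083058 to 69920400 in hypoxia and 70275114 to 78235938 in normoxia, and the lowest count of any of the 4 genes in a library was 64, for myh6. Levels are given as CPM, counts scaled to a common library size with TMM factors. CPM is not corrected for gene length, so that levels are compared between groups and not between genes. A gene is said to have risen or fallen where edgeR's quasi-likelihood test gave an adjusted p under 0.05 over all 23716 genes, and it is called a DEG where its log2 fold change was also beyond 0.6 in either direction.

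Of the 4 heart genes, the atrial myosin and the troponin passed the test. The atrial myosin myh6 fell to 1.41 ± 0.527 CPM in hypoxia (SD, n = 3), against 2.54 ± 0.733 CPM in normoxia (SD, n = 4), and the troponin gene tnnt2a fell to 11.9 ± 2.33 CPM, against 15.9 ± 0.301 CPM. The ventricular myosin vmhc (116 ± 10.4 CPM in hypoxia, 119.7 ± 3.69 CPM in normoxia) and the light chain gene myl7 (17.9 ± 4.33 CPM in hypoxia, 20.3 ± 0.864 CPM in normoxia) did not pass the test. Thus 2 of the 4 genes were lower past the adjusted p, where 25.1% of all tested genes were lower and 49.7% passed in either direction. One of the 4, myh6, was a DEG, and 7.45% of all tested genes were DEGs lower in hypoxia. The count of 2 genes became 3 without hypoxia replicate 1, and 1 without hypoxia replicate 2 or without hypoxia replicate 3.

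**Figure D1:**
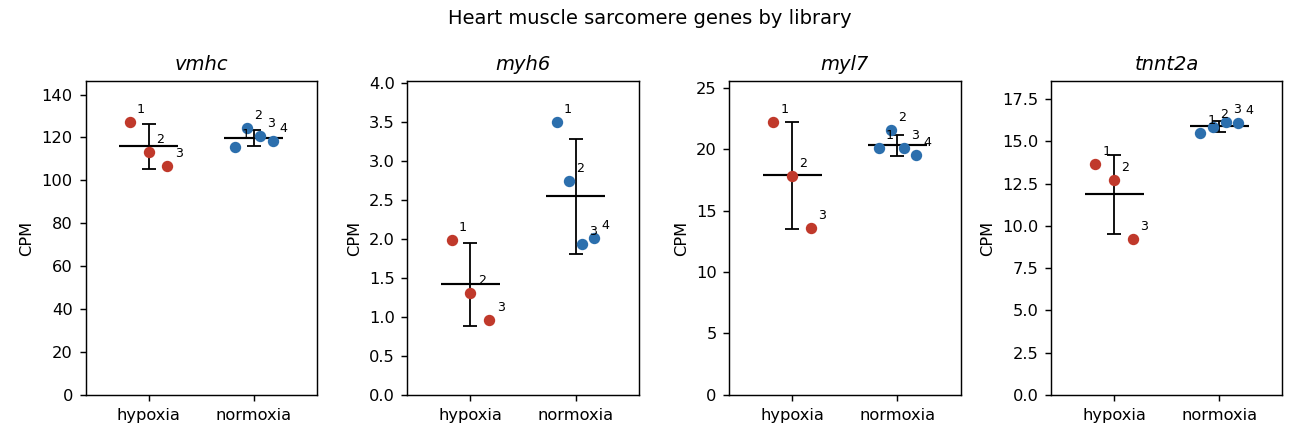
CPM of vmhc, myh6, myl7 and tnnt2a (vertical axis, from 0) in each hypoxia library (red, 3) and each normoxia library (blue, 4), with the replicate number beside each point and the mean and SD as bars. All hypoxia libraries lay below all normoxia libraries for tnnt2a, while the groups overlapped for the other 3 genes, and hypoxia replicate 1 was the highest hypoxia library in every panel.

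The atrial myosin heavy chain gene myh6 had 1.99, 1.301 and 0.953 CPM in hypoxia replicates 1 to 3, against 3.49, 2.74, 1.93 and 2.01 CPM in normoxia replicates 1 to 4. These values rest on 134, 83 and 64 counts in hypoxia and on 254, 212, 144 and 161 counts in normoxia. Hypoxia replicate 1 lay between the 2 lowest normoxia libraries, so that the groups overlapped, and hypoxia replicates 2 and 3 lay below every normoxia library. In edgeR's test the log2 fold change was -0.84 with a standard error of 0.27 (adjusted p = 0.022). This is 0.558-fold, and 3.88% of tested genes had a lower log2 fold change. The spread was wide in both groups, with a coefficient of variation of 37.2% in hypoxia and 28.9% in normoxia. Without hypoxia replicate 2 the log2 fold change was -0.79 (adjusted p = 0.077, edgeR) and without hypoxia replicate 3 it was -0.62 (adjusted p = 0.079, edgeR), so that the fall of myh6 was not called without either library.

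Cardiac troponin T, tnnt2a, had 13.7, 12.7 and 9.25 CPM in hypoxia replicates 1 to 3, from 923, 810 and 621 counts. In normoxia replicates 1 to 4 it had 15.5, 15.8, 16.2 and 16.1 CPM, from 1125, 1225, 1207 and 1290 counts. Every hypoxia library lay below every normoxia library, as was the case for 26.5% of all tested genes. The log2 fold change was -0.42 (standard error 0.11, adjusted p = 0.0083, edgeR), or 0.748-fold, short of the 0.6 that a DEG requires. Left out one at a time, no library ended the call, with log2 fold changes of -0.53 to -0.27, that of -0.27 without hypoxia replicate 3. Its normoxia libraries were close to each other, with a coefficient of variation of 1.90%, against 19.6% in hypoxia.

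The ventricular myosin heavy chain gene vmhc had 127, 113.4 and 107 CPM in hypoxia replicates 1 to 3, against 116, 124, 121 and 119 CPM in normoxia replicates 1 to 4. Hypoxia replicate 1 was above all normoxia libraries and hypoxia replicates 2 and 3 were below all of them. With 7169 to 8570 counts per library in hypoxia and 8397 to 9623 in normoxia, vmhc was measured with the smallest standard error of the 4 genes. The log2 fold change was -0.05 (standard error 0.06, adjusted p = 0.52, edgeR), with a 95% confidence interval from -0.18 to 0.08. The log2 fold change of tnnt2a, -0.42, lay outside this interval, and its own 95% confidence interval ran from -0.66 to -0.18. The intervals do not compare vmhc with tnnt2a directly, which is done only by their ratio below. Without hypoxia replicate 3 the log2 fold change was 0.003 (adjusted p = 0.97, edgeR).

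The light chain gene myl7 had 22.2, 17.9 and 13.6 CPM in hypoxia replicates 1 to 3, from 1497, 1139 and 910 counts. In normoxia replicates 1 to 4 it had 20.1, 21.5, 20.1 and 19.5 CPM, from 1458, 1667, 1503 and 1567 counts. As in vmhc, hypoxia replicate 1 was above all normoxia libraries and the other 2 hypoxia libraries were below all of them. The log2 fold change was -0.18 (standard error 0.13, adjusted p = 0.25, edgeR), with a 95% confidence interval from -0.46 to 0.10. Without hypoxia replicate 1 it was -0.37 (adjusted p = 0.0071, edgeR), and without hypoxia replicate 3 it was -0.022 (adjusted p = 0.85, edgeR), so that the value of myl7 rested on these libraries.

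In all 4 genes replicate 1 was the highest and replicate 3 the lowest of the hypoxia libraries. Relative to the normoxia mean, hypoxia replicate 1 stood at 109% for myl7, 106% for vmhc, 78.2% for myh6 and 86.2% for tnnt2a. Hypoxia replicate 3 stood at 66.8% for myl7, 89.2% for vmhc, 37.5% for myh6 and 58.2% for tnnt2a. Summed over the 4 genes, the level was 165, 145 and 131 CPM in hypoxia replicates 1 to 3, and 155 to 164 CPM in normoxia. Most of this sum was vmhc, at 127, 113.4 and 107 CPM in hypoxia replicates 1 to 3, so that it says little of the other genes. The same ranking of the 3 hypoxia libraries was found in 24.5% of all tested genes and in 52.6% of the 5950 genes that were lower in hypoxia. The coefficient of variation in hypoxia was 24.2% for myl7 and 8.98% for vmhc, where the median over 19882 genes with a mean of at least 1 CPM was 6.42% in hypoxia and 5.91% in normoxia. Why hypoxia replicate 1 was the highest was not tested.

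Ventricle was set against atrium by the number of vmhc counts per count of myh6 within each library, a ratio that does not depend on how libraries are scaled. The ventricle was thus represented by vmhc alone and the atrium by myh6 alone. The ratio was 64.0, 87.2 and 112 in hypoxia replicates 1 to 3, and 33.1, 45.4, 62.6 and 59.1 in normoxia replicates 1 to 4. All hypoxia libraries were above all normoxia libraries, although hypoxia replicate 1 and normoxia replicate 3 were close. On the log2 scale the mean ratio was 6.42 ± 0.41 in hypoxia (SD, n = 3) and 5.60 ± 0.42 in normoxia (SD, n = 4), a difference of 0.82, or 1.76-fold (exact two-sided permutation test, p = 0.057, and 0.086 adjusted over 6 ratios). The smallest p that 3 libraries against 4 allow is 0.029. The log2 ratio ranged more widely within normoxia, from 5.05 to 5.97, than the group means differed, and gene length was not corrected for, so that the ratio says nothing of the amount of ventricle against atrium in either group.

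All 6 ratios among the 4 genes were tested in this way. The lowest adjusted p was 0.086, short of the threshold, and 2 ratios had an unadjusted p under 0.05. Both of these stood at 0.029, the smallest p that the exact test allows here. An adjusted p under 0.05 would have needed more ratios at this smallest value. Missing the threshold can therefore not be read as the absence of a difference. The ratio of vmhc to tnnt2a was 9.29, 8.93 and 11.5 counts per count in hypoxia, against 7.46, 7.86, 7.47 and 7.38 in normoxia, a log2 difference of 0.39 (exact permutation test, p = 0.029, adjusted p = 0.086). The ratio of tnnt2a to myl7 was 0.617, 0.711 and 0.682 in hypoxia and 0.772, 0.735, 0.803 and 0.823 in normoxia, a log2 difference of -0.23 (exact permutation test, p = 0.029, adjusted p = 0.086). In both of these ratios the groups did not overlap. The ratio of myh6 to myl7 differed by -0.66 on the log2 scale (exact permutation test, p = 0.057, adjusted p = 0.086), again with groups that did not overlap. For vmhc over myl7 the difference was 0.16 and for myh6 over tnnt2a it was -0.43 (exact permutation test, p = 0.20 and adjusted p = 0.20 for each), and the groups overlapped in both. Without hypoxia replicate 1 the difference of vmhc over myl7 was 0.26 and without hypoxia replicate 3 it was 0.032, and that of myh6 over tnnt2a was -0.25 without normoxia replicate 1. The 6 ratios are built from the same 4 counts per library and are not independent.

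**Figure D2:**
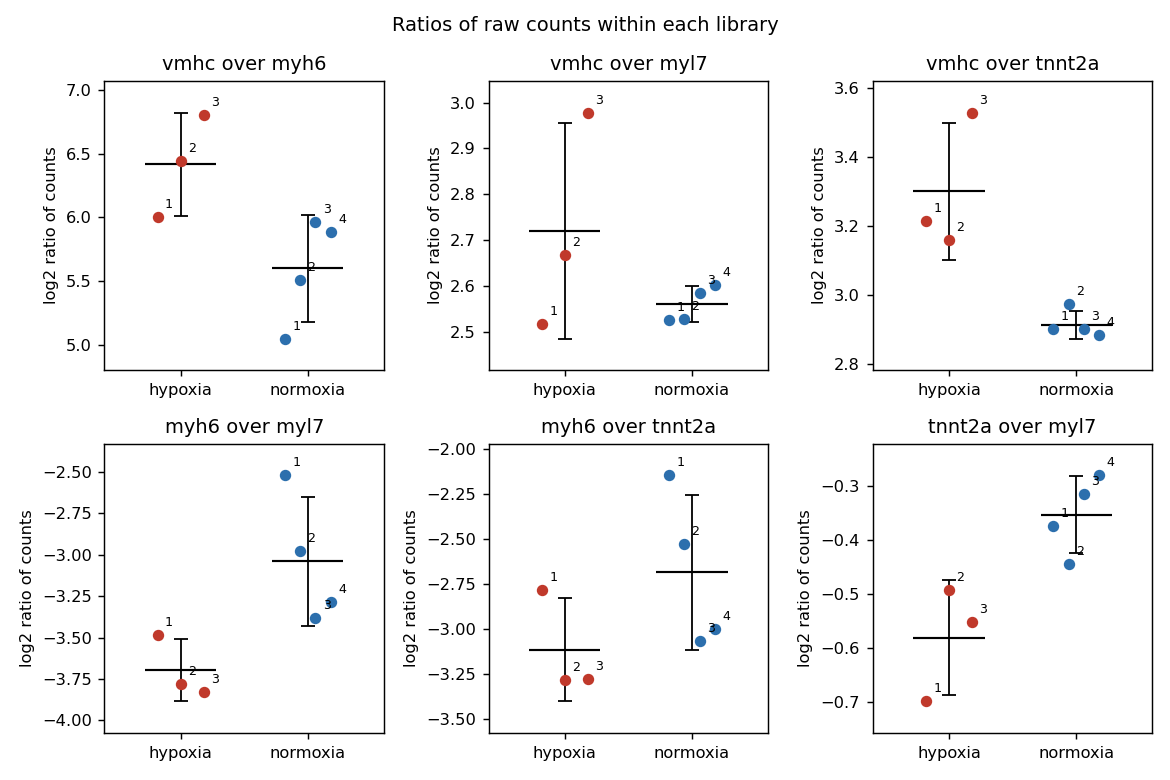
Log2 ratio of raw counts of 2 genes in the same library (vertical axis, a different range in each panel) for the 6 pairs of the 4 heart genes, in hypoxia (red, 3 libraries) and normoxia (blue, 4 libraries), with replicate numbers, means and SDs. The groups did not overlap in vmhc over myh6, vmhc over tnnt2a, myh6 over myl7 and tnnt2a over myl7, and they overlapped in the other 2.

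Of the other heart muscle markers, the essential light chain gene cmlc1 (ENSDARG00000032976) fell to 7.55 ± 1.71 CPM in hypoxia, against 10.03 ± 0.564 CPM in normoxia, a log2 fold change of -0.41 (adjusted p = 0.020, edgeR). Slow and cardiac troponin C, tnnc1a (ENSDARG00000011400), fell to 3.16, 2.16 and 1.74 CPM in hypoxia replicates 1 to 3, against 4.73, 4.48, 3.55 and 3.28 CPM in normoxia replicates 1 to 4, a log2 fold change of -0.77 (adjusted p = 0.0081, edgeR). The natriuretic peptide gene nppa (ENSDARG00000052960), which heart muscle secretes, had 13.8, 10.2 and 7.31 CPM in hypoxia and 9.80, 9.61, 8.52 and 7.95 CPM in normoxia, and did not pass the test (log2 fold change 0.22, adjusted p = 0.31, edgeR). In all 3 markers hypoxia replicate 1 was again the highest hypoxia library and replicate 3 the lowest. This order was found in 24.5% of all tested genes and in 52.6% of the genes that fell, as cmlc1 and tnnc1a did. Among the 27 tested genes of a wider cardiac sarcomere list, which includes cmlc1 and tnnc1a, 10 had this order.

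A wider list of sarcomere genes used in heart muscle matched 28 identifiers, of which 27 were tested. Of these, 6 fell, 4 rose and 17 did not pass the test, where 25.1% of all tested genes fell and 24.6% rose, and their median log2 fold change was -0.01, against -0.0044 over all tested genes. Many names in the gene table are human symbols in capitals that stand for several zebrafish copies, and several genes of the list also serve skeletal muscle, so that the list is not particular to the heart. The 6 that fell were tnnc1a, cmlc1, one of 2 LMOD2 genes, one of 2 MYOZ2 genes, MYBPC3 and myl4, and in all 6 every hypoxia library lay below every normoxia library, as in 93.2% of all genes that fell. Leiomodin 2 lengthens thin filaments, and LMOD2 (ENSDARG00000045864) stood at 3.17 ± 0.537 CPM in hypoxia, against 4.996 ± 0.195 CPM in normoxia (log2 fold change -0.65, adjusted p = 0.00082, edgeR). MYBPC3 (ENSDARG00000011615), the cardiac myosin binding protein C of the thick filament, stood at 107 ± 6.79 CPM, against 134 ± 3.09 CPM (log2 fold change -0.32, adjusted p = 0.00046). The log2 fold change of myl4 (ENSDARG00000011519), an essential light chain, was -0.27 (adjusted p = 0.019), and that of MYOZ2 (ENSDARG00000037266), a Z-disc protein, was -0.35 (adjusted p = 0.0027).

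The 4 genes of the list that rose were both TTN genes, tcap and ldb3b. Titin spans from Z-disc to M-line in heart and skeletal muscle alike, and the TTN genes stood at 1452 CPM in hypoxia, against 884 CPM in normoxia (ENSDARG00000000563, log2 fold change 0.72), and at 1367 CPM, against 771 CPM (ENSDARG00000028213, log2 fold change 0.83, adjusted p = 0.00015 for each, edgeR). The titin cap gene tcap (ENSDARG00000007344) had 29.9, 30.0 and 27.4 CPM in hypoxia and 16.9, 24.6, 14.8 and 17.5 CPM in normoxia (log2 fold change 0.66, adjusted p = 0.0024). The Z-disc gene ldb3b (ENSDARG00000099974) rose by less, to 383 CPM in hypoxia, against 351 CPM in normoxia (log2 fold change 0.13, adjusted p = 0.030). The gene with the third highest CPM of the list, the M-line gene MYOM2 (ENSDARG00000075433), had 738 CPM in hypoxia, against 672 CPM in normoxia, and did not pass the test (log2 fold change 0.14, adjusted p = 0.11).

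**Figure D3:**
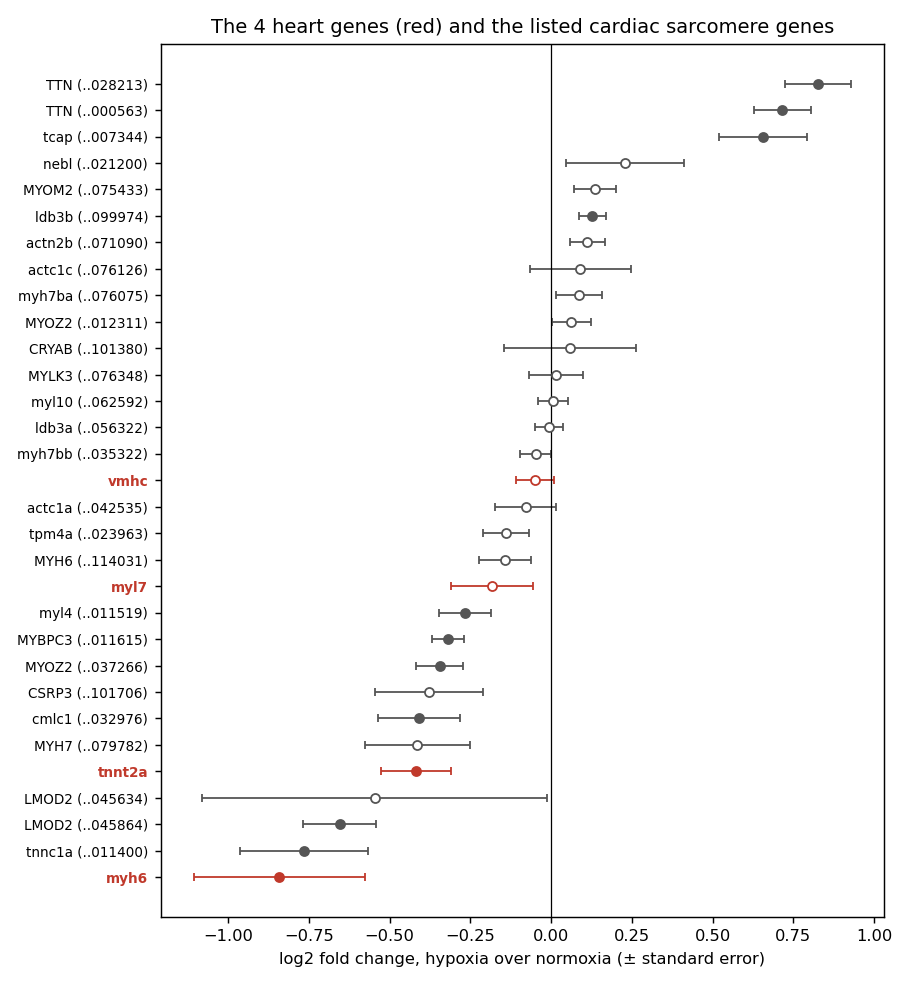
Log2 fold change, hypoxia over normoxia, with its standard error (horizontal axis) for the 4 heart genes (red) and the 27 tested genes of the cardiac sarcomere list (grey, with the last 6 digits of the Ensembl identifier). Filled points passed an adjusted p of 0.05 in edgeR's test and open points did not. The 4 heart genes all lay below 0, with myh6 the lowest of the 31 genes and vmhc near 0, while both TTN genes and tcap lay above 0.6.

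Among 15 tested genes of calcium handling and conduction in heart muscle, 6 rose and 2 fell, where 24.6% of all tested genes rose and 25.1% fell, with a median log2 fold change of 0.18. The highest were one HCN4 gene (ENSDARG00000074419), a pacemaker channel, at 0.41 and CACNA1C, the L-type calcium channel, at 0.36, and the lowest were one SLC8A1 gene (ENSDARG00000013422), a sodium-calcium exchanger, at -0.79 and atp2a2a, the calcium pump of the cardiac reticulum, at -0.32. Of 18 tested genes from a list of cardiac transcription factors, which also includes the signal BMP10, 8 rose and 4 fell, with a median of 0.14. GATA6 fell to 5.66 CPM in hypoxia, against 11.9 CPM in normoxia (log2 fold change -1.07, adjusted p = 0.0020, edgeR), and TBX5 fell to 1.35 CPM, against 2.08 CPM (log2 fold change -0.62, adjusted p = 0.012). The 2 IRX1 genes were the highest, at log2 fold changes of 0.34 and 0.40. Factors of these lists are also made outside the heart, as are the channels, so that their levels in whole larvae do not speak of the heart alone.

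Skeletal muscle makes up far more of a larva than the heart. Of 32 tested fast skeletal muscle genes 22 rose and 1 fell, where 24.6% of all tested genes rose and 25.1% fell, with a median log2 fold change of 0.24, and their summed level was 125473 to 129996 CPM in hypoxia and 98328 to 107849 CPM in normoxia. The highest were a TNNI2 gene (ENSDARG00000013752), a fast troponin I, at 0.76 and myha at 0.50, and the only one to fall was a SMYD1 gene (ENSDARG00000091253), a methyltransferase of myosin assembly, at -0.41. This TNNI2 gene and myha had low levels, 6.53 and 15.4 CPM in hypoxia. Of the fast muscle markers, ckma rose by 0.38 on the log2 scale and the TNNT3 genes by 0.16 and 0.27. The marker myhz2 did not pass the test (log2 fold change 0.06, adjusted p = 0.51, edgeR). Of 12 tested slow skeletal muscle genes 5 rose and 3 fell, with a median of -0.03. Their lowest was tnnt2c, a troponin T, which fell to 12.3 CPM in hypoxia, against 20.4 CPM in normoxia (log2 fold change -0.73, adjusted p = 0.00029, edgeR), and the highest was myoz1b at 0.22. The slow muscle marker smyhc1 did not pass the test (log2 fold change -0.065, adjusted p = 0.41, edgeR). The 8 slow muscle genes past the test became 5 without normoxia replicate 2 or normoxia replicate 4, and 4 without hypoxia replicate 2. CPM are relative levels, scaled here with TMM factors. The part that the higher level of fast muscle genes had in the heart genes' values was not tested.

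Of 10 tested smooth muscle genes 5 fell and 5 did not pass the test (25.1% of all tested genes fell and 24.6% rose), with a median log2 fold change of -0.68. The smooth muscle actin gene acta2 fell to 74.8 CPM in hypoxia, against 124 CPM in normoxia (log2 fold change -0.72, adjusted p = 0.0013, edgeR), and a calponin gene CNN1 (ENSDARG00000102398) had the lowest log2 fold change of the list, at -1.31. Of 8 endothelial and endocardial genes 4 fell and 1 rose, with a median of -0.13. The flow-responsive factor klf2a fell by 0.56 on the log2 scale and the receptor gene tek rose by 0.48. The endothelial genes kdrl and cdh5 stood at -0.04 and 0.05 and did not pass the test. The other markers, FLI1 and NFATC1, fell, at -0.29 and -0.21 (adjusted p = 0.0053 and 0.032, edgeR). Of 5 epicardial genes WT1 and ALDH1A2 fell, at -0.40 and -0.36, and the other 3 did not pass the test. Of 9 red cell genes 7 rose and 2 fell, with a median of 0.57, led by the globin gene hbae5 at 4.47. The part of these other cell types in the levels of the heart genes was not tested.

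**Figure D4:**
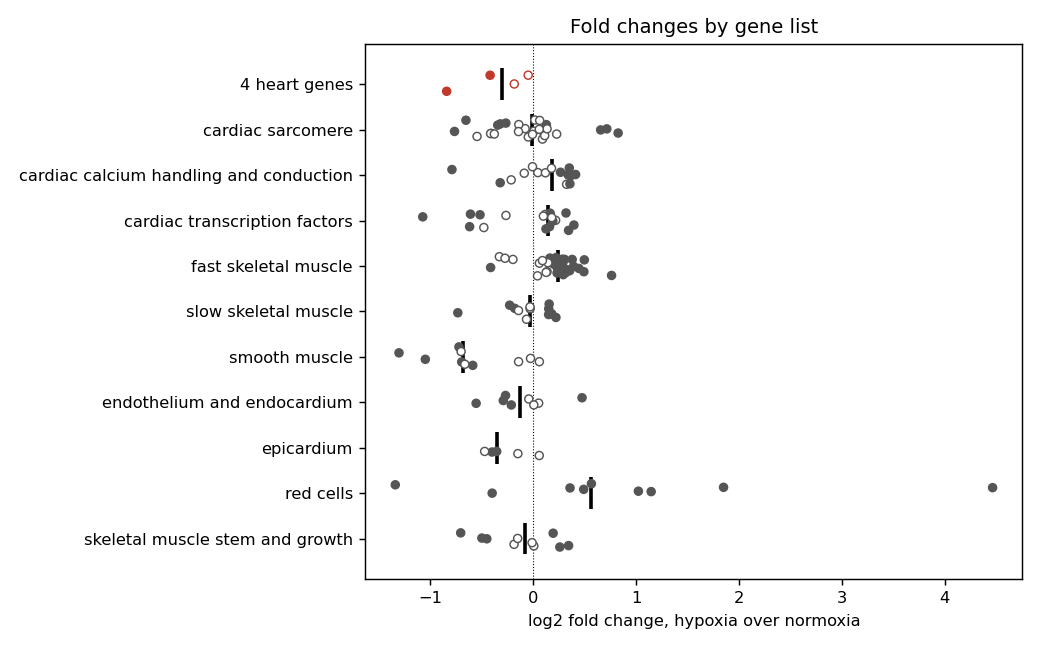
Log2 fold change, hypoxia over normoxia (horizontal axis), of each tested gene in the 4 heart genes (red) and in 10 lists of muscle, heart and blood genes (grey), with the median of each list as a vertical bar and points spread vertically for legibility. Filled points passed an adjusted p of 0.05. The median was -0.68 for smooth muscle, -0.01 for the cardiac sarcomere list, 0.24 for fast skeletal muscle and 0.57 for red cells.

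The 4 genes were compared with every other gene of at least 1 CPM, 19878 in all, by the correlation over the 7 libraries of log2 CPM with the mean standardised profile of the 4. The most alike were zgc:194930 (r = 0.993), MYH7 (ENSDARG00000079782, r = 0.991), hoxa13a (r = 0.988), myhb (r = 0.986) and myhz1.1l (r = 0.984). MYH7, myhb and myhz1.1l are myosin heavy chain genes, MYH7 from the cardiac sarcomere list and myhb from the fast skeletal muscle list. The gene hoxa13a is a homeobox gene of the tail and fins, so that the pattern was not particular to heart genes. MYH7 had 30.5, 20.9 and 16.1 CPM in hypoxia replicates 1 to 3 and 27.6 to 31.7 CPM in normoxia (log2 fold change -0.41, adjusted p = 0.054, edgeR), and myhb had 236, 164 and 126 CPM in hypoxia and 205.6 to 234.5 CPM in normoxia. The adjusted p of these 5 genes ran from 0.054 to 0.14 (edgeR). The correlations describe 7 libraries that share an exposure within each group, and r between the 4 genes themselves ran from 0.61 (vmhc and myh6) to 0.93 (myl7 and vmhc).

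Counts of these genes have limits of their own. Strand use in the counting is not given in the sources used here. Whether reads of a gene were kept apart from those of genes that overlap it is therefore not known. Myosin heavy chain genes are close copies, and how reads shared between copies were counted is not given either. The gene table lists ENSDARG00000090637 as myh6, but gives the capital symbol MYH6 both to ENSDARG00000079564, taken here as vmhc, and to ENSDARG00000114031, which had 17.5 ± 1.44 CPM in hypoxia and 19.3 ± 1.69 CPM in normoxia (log2 fold change -0.14, adjusted p = 0.16, edgeR).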

How the data were processed

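Poly(A) RNA-seq libraries of 3 hypoxia and 4 normoxia pools were grouped by their sample titles. Per the labels and the paper's methods, the authors trimmed reads (Trimmomatic 0.39), aligned them to GRCz11, Ensembl release 113 (STAR 2.7.10), and deposited whole-number counts per gene (featureCounts 2.0.7), not normalized. In R 4.3.3, edgeR 4.0.16 was run on the whole table (filterByExpr, TMM, glmQLFit, glmQLFTest, Benjamini-Hochberg), and the functions were tested on simulated data. Standard errors are the absolute log2 fold change over the square root of F. Ratios of counts were compared by exact permutation in Python 3.11.15. At the total counts per library, without TMM factors, 3 counts equal 0.0383 to 0.0447 CPM, for counting error only. No 2 replicates agreed within sampling noise (chi-square per degree of freedom 7.22 to 21.6).

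Alternatives were DESeq2 1.42.0, other scalings and count filters, the fold threshold inside the test, a replicate block, and leaving out each library. The 4 genes and the lists were chosen with earlier results of these data known. Named besides the 4 were the 5 most correlated genes, cardiac sarcomere genes past the adjusted p or among the 3 most abundant, and, per other list, the 2 highest and 2 lowest past the adjusted p with at least 1 CPM, of which the text gives some, as well as markers. Of 148 listed symbols 16 had no usable name in the gene table. One result on a further gene is not reported here.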

Additional observations from a re-analysis of the deposited data

How the results depend on the processing

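With the log2 threshold of 0.6 placed inside the test, myh6 (-0.84) and tnnt2a (-0.42) lost their calls (adjusted p = 1 for each, edgeR's glmTreat), and 0 of the 4 genes passed or were DEGs (0 also at an unadjusted p under 0.05, the lowest being 0.072 for myh6). Of the cardiac sarcomere, fast and slow skeletal muscle lists 0 genes passed, with 2, 1 and 1 genes at an unadjusted p under 0.05. This setting asks for a larger change, and 300 of all 23716 genes passed it. The 7 other settings that used all libraries or a block changed no call of the 4 genes, DESeq2 included (adjusted p = 0.0033 for myh6 and 0.00064 for tnnt2a). With library size as the one scaling, the median over all genes was -0.10 and vmhc stood at -0.14, with no change of call.

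Leaving out 1 library at a time gave log2 fold changes from -0.37 to -0.022 for myl7, -0.12 to 0.003 for vmhc, -1.17 to -0.62 for myh6 and -0.53 to -0.27 for tnnt2a. The sign of vmhc turned without hypoxia replicate 3, at an adjusted p of 0.97. From 1 to 3 of the 4 genes passed the adjusted p and 0 to 1 were DEGs. Of the lists, 7 to 12 cardiac sarcomere, 22 to 26 fast and 4 to 8 slow skeletal muscle genes passed. The vmhc to myh6 log2 ratio differed by 0.62 to 1.03, that of vmhc to myl7 by 0.032 to 0.26 and that of myh6 to tnnt2a by -0.60 to -0.25, and no ratio changed direction. With 6 libraries the exact test cannot go below 0.067 or 0.10, and so cannot be read for stability.

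The replicate number as a block, on replicates 1 to 3, gave -0.96 for myh6 (adjusted p = 0.00031, edgeR), -0.43 for tnnt2a, -0.23 for myl7 and -0.06 for vmhc. Same-numbered libraries deviated together at r = 0.190, 0.0520 and 0.0211, and 2 of 3 hypoxia libraries matched their own number best. These values do not settle whether the numbers are pairs. The labels state no pairing, and the numbers were not taken as pairs. For myh6, CPM fell from replicate 1 to replicate 3 in both groups. Its standard error was 0.14 with the block and 0.27 in the main test.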

Other observations

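Of 10 tested genes of muscle stem cells and muscle growth, 3 rose and 3 fell, where 24.6% of all tested genes rose and 25.1% fell, with a median log2 fold change of -0.08. The myogenic factor MYOG fell to 4.69 CPM in hypoxia, against 6.42 CPM in normoxia (log2 fold change -0.45, adjusted p = 0.00065, edgeR), and MYMK, which fuses muscle precursors, fell to 3.37 CPM, against 4.76 CPM (log2 fold change -0.50, adjusted p = 0.0022). The growth inhibitor mstnb rose to 4.28 CPM in hypoxia, against 3.37 CPM in normoxia (log2 fold change 0.34, adjusted p = 0.012), and MYOD1 to 13.8 CPM, against 11.5 CPM (log2 fold change 0.26, adjusted p = 0.049).

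No normoxia value of the 4 heart genes or of their 6 ratios stood apart from the rest of its group by Dixon's criterion. The nearest was the vmhc to tnnt2a ratio, where the gap was 0.815 of the range, under the critical value for 4 samples.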
